A study of Mus musculus with 8 samples.

Results

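The 10 genes described here encode the 3 TGF-beta ligands (Tgfb1, Tgfb2 and Tgfb3), the 3 receptors that bind them (Tgfbr1, Tgfbr2 and Tgfbr3), the signal transducer Smad3, the feedback inhibitors Smad7 and Skil, and the TGF-beta-induced matrix protein Tgfbi. They were chosen by gene symbol, with no cutoff on their values, from the 22520 protein-coding genes of the liver endothelial cell (EC) mRNA-seq table. Earlier results of these data were known when they were chosen. LRP1, the protein removed in this study, is a large endocytic receptor of the LDL receptor family. The study asked which genes change in ECs when LRP1 is lost. WT libraries came from LRP1 f/f; Cdh5-CreER-/- mice and LRP1 eKO libraries from their LRP1 f/f; Cdh5-CreER+/- littermates, 4 libraries of each. All were C57BL/6 mice at postnatal day 14, and primary microvascular ECs were selected with beads carrying an antibody to PECAM-1. Both genotypes carried floxed Lrp1. The Cdh5 promoter, which is active in ECs, drives the inducible CreER recombinase, and only LRP1 eKO mice carried it, so that an effect of CreER and one of losing Lrp1 cannot be told apart. The labels do not say whether each library came from a separate animal, and p-values therefore measure the spread between these libraries, which may be technical.

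TGF-beta is secreted as a latent complex, in which the active dimer is held by its own propeptide and tethered to the matrix or the cell surface. Once released, it binds the type II receptor Tgfbr2, which recruits and phosphorylates the type I receptor Tgfbr1, and the type I receptor phosphorylates Smad2 and Smad3, which enter the nucleus with Smad4. In the vessel wall and the liver the pathway is known for its control of matrix production, smooth muscle genes and fibrosis, and LRP1 itself was once described as the type V TGF-beta receptor.

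The deposited values are a quantile-normalized signal, so that all libraries share nearly the same distribution. Totals lay between 484445 and 485947 in every library, nothing in the table gives the depth, and what unit the values had before quantile normalization is not given in the sources used here. Lrp1 served as the check of the genotype labels, and its mean signal went from 65.5 ± 13.3 in WT to 4.41 ± 1.65 in LRP1 eKO libraries (SD, 4 libraries a group). The cell type label was checked against marker lists. The pan-endothelial markers had a median percentile of 54.2 among the WT mean signals of all genes in the table, the liver sinusoidal endothelial markers of 46.9 and the mesothelial markers of 98.6. Per kilobase of transcript the same medians were 52.7, 44.3 and 97.0. Pecam1, the target of the selecting antibody, had a signal between 1.53 and 2.50 in WT libraries, while Msln, which encodes the mesothelial surface protein mesothelin, had 837 to 1111. The endothelial markers were thus low and the mesothelial markers high in cells labelled as microvascular. Other lists were also above the pan-endothelial median percentile of WT mean signals. The stellate and fibroblast list had 75.0, the hepatocyte list 72.2, smooth muscle 66.1, skeletal muscle 65.9 and the macrophage list 57.0. The platelet list, at 38.6, and the lymphocyte and granulocyte list, at 29.0, were below it. WT replicate 4 was the library farthest from the WT median for 61.7% of the genes tested, and LRP1 eKO replicate 2 the farthest from its own median for 37.2%.

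Of the 10 TGF-beta genes, 4 were higher in LRP1 eKO libraries (Tgfb1, Tgfb2, Tgfbr2 and Smad3), 2 were lower (Tgfb3 and Tgfbi), and 4 did not pass the test (Tgfbr1, Tgfbr3, Smad7 and Skil). Calls were made with limma on log2(signal + 1), at a Benjamini-Hochberg adjusted p under 0.05 over 11391 genes. These genes reached a signal of 1 in 4 or more libraries, and all 10 TGF-beta genes were among them. By the same rule 41.2% of all genes tested were called, with 19% higher and 22.2% lower. The 6 of 10 stand beside these 4690 of 11391. On the log2(signal + 1) scale none of the 10 also reached a 2-fold change, which 1.66% of all genes did, although the mean signal of Tgfbi itself was 2.53-fold lower. The median log2 fold change was 0.22 over the 10 genes and -0.01 over all genes tested. The added 1 makes these log2 fold changes smaller than the true ones where the signal is low. In bulk RNA, fewer cells of a type and less RNA per cell cannot be told apart.

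**Figure D1:**
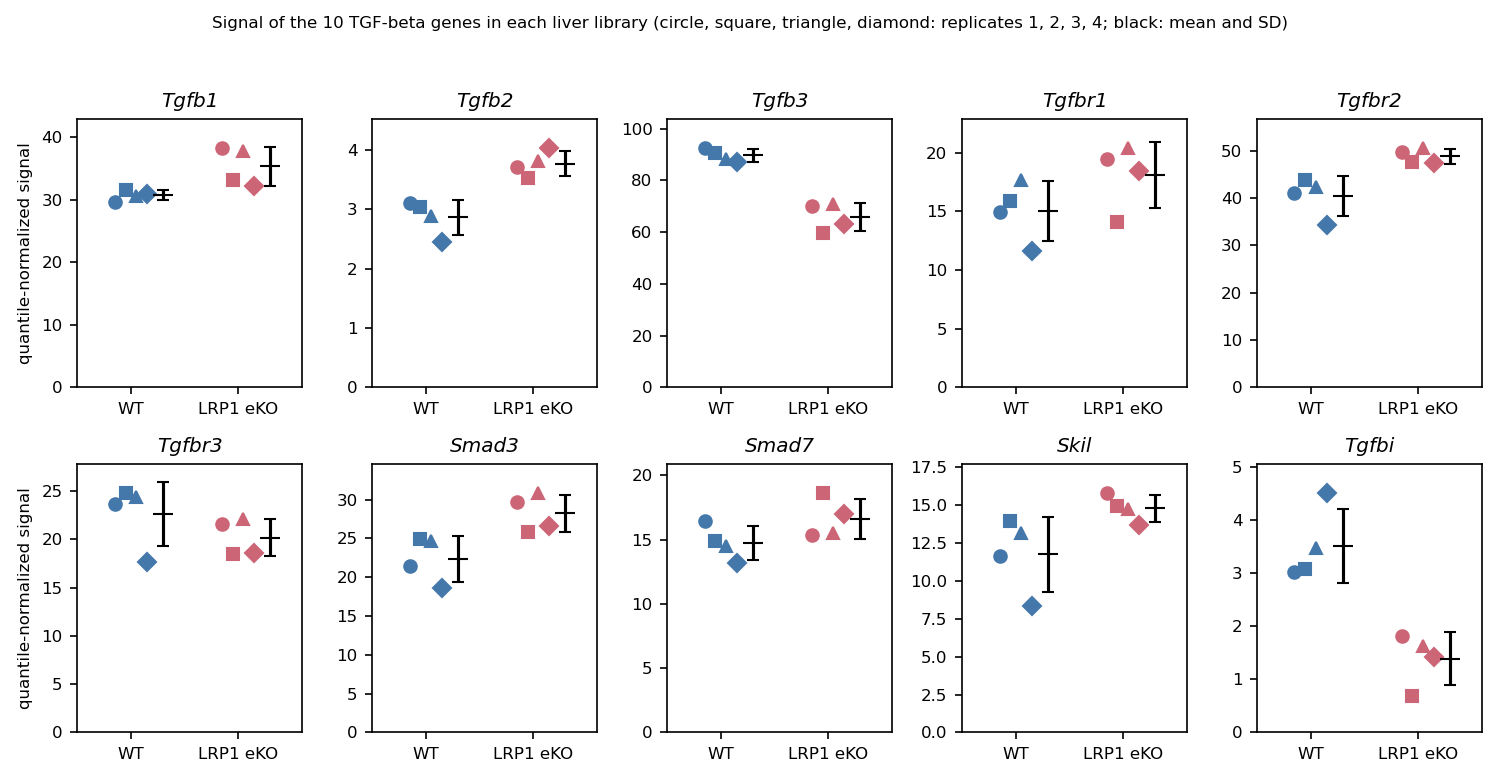
Quantile-normalized signal (vertical axes, each starting at 0) of the 10 TGF-beta genes in the 4 WT and 4 LRP1 eKO libraries. Each symbol is a library, with the mean and SD in black. The groups are separate for Tgfb1, Tgfb2, Tgfb3, Tgfbr2, Smad3 and Tgfbi and overlap for Tgfbr1, Tgfbr3, Smad7 and Skil.

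The 3 ligands moved in different directions. Tgfb1, which encodes the most widely expressed TGF-beta, had a signal of 29.6, 31.6, 30.7 and 31.0 in the WT libraries, replicates 1 to 4 in turn, against 38.3, 33.1, 37.8 and 32.3 in the LRP1 eKO libraries. Every LRP1 eKO library was above every WT library, with replicates 1 and 3 the highest and replicates 2 and 4 only slightly above the WT range. The mean rose by 15.2%, from 30.7 ± 0.83 to 35.4 ± 3.13 (SD, n = 4 each), and the log2 fold change was 0.19 (standard error 0.062, 95% interval 0.05 to 0.33, limma adjusted p = 0.032). Among the 6 calls this adjusted p was the largest. The call was lost without WT replicate 1 (limma adjusted p = 0.078), WT replicate 3 (0.064), LRP1 eKO replicate 1 (0.088) or LRP1 eKO replicate 3 (0.091). The exact two-sided permutation test gave p = 0.029, the smallest value that 4 libraries against 4 allow.

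Tgfb2, the isoform essential for heart and vessel development, rose as well. Its signal was 3.10, 3.03, 2.88 and 2.44 in the WT libraries, replicates 1 to 4 in turn, against 3.70, 3.52, 3.81 and 4.03 in the LRP1 eKO libraries. Again the groups did not overlap, and WT replicate 4 was the lowest library and LRP1 eKO replicate 4 the highest. The mean rose by 31.5%, from 2.86 ± 0.30 to 3.77 ± 0.21 (SD, n = 4 each), and the log2 fold change was 0.31 (standard error 0.071, 95% interval 0.15 to 0.46, limma adjusted p = 0.0076). With a pseudocount of 5 in place of 1 it was 0.16 (limma adjusted p = 0.0066). A noncoding transcript on the opposite strand, Gm29491, shares 80 bases with a Tgfb2 exon, and whether the counting used strand is not given in the sources used here.

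Tgfb3 changed in the other direction. This ligand, known for its part in palate closure and scar formation, had a signal of 92.6, 90.7, 88.2 and 87.0 in the WT libraries, replicates 1 to 4 in turn, against 69.9, 59.6, 70.8 and 63.1 in the LRP1 eKO libraries. The WT libraries lay close together and all were well above the LRP1 eKO libraries, of which replicate 2 was the lowest. The mean fell by 26.5%, from 89.6 ± 2.50 to 65.8 ± 5.44 (SD, n = 4 each), and the log2 fold change was -0.44 (standard error 0.059, 95% interval -0.57 to -0.31, limma adjusted p = 3.8e-04). Tgfb3 had the smallest adjusted p of the 10 genes, and the call was made under all 18 alternatives that gave a p. Its exons overlap those of the noncoding Gm37804 and Gm48008 on the opposite strand, by up to 130 and 257 bases.

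The proportions of the ligands within a library differed between the genotypes as well. The Tgfb1 signal divided by the Tgfb3 signal of the same library was 0.320, 0.349, 0.348 and 0.356 in the WT libraries, replicates 1 to 4 in turn, against 0.548, 0.557, 0.534 and 0.511 in the LRP1 eKO libraries. The spread of this ratio within a genotype was small beside the distance between the genotypes, and its mean was 1.57-fold higher in LRP1 eKO libraries. For Tgfb2 over Tgfb3 the mean ratio went from 0.0319 ± 0.0026 to 0.0575 ± 0.0051 (SD, n = 4 each). These ratios were chosen after the values of the genes were seen and are given as descriptions, with no test.

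The order of the ligands by level was the same in both genotypes. Per kilobase of the longest coding transcript, the WT means were 26.5 for Tgfb3, 14.1 for Tgfb1 and 0.560 for Tgfb2, and the LRP1 eKO means were 19.5, 16.3 and 0.736. The per-kilobase levels of Tgfb3 and Tgfb1 were far apart in WT libraries, at 25.7 to 27.4 and 13.6 to 14.5. In LRP1 eKO libraries, at 17.6 to 20.9 and 14.8 to 17.6, their ranges met, while Tgfb2 stayed far below both, at 0.689 to 0.788. If the signal was already scaled to length before deposit, the levels to compare are the deposited ones, which keep the same order.

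The promoters of the ligands that rose can be set beside each other, since Smad3 is known to bind short DNA elements with the letters CAGAC. RefSeq promoters on GRCm38.p6 were held for 6 of the 10 genes, in 7 windows, and the members without an entry were Tgfb3, Tgfbr3, Smad7 and Skil. The letters CAGAC, or GTCTG on the other strand, are in capitals in the 250 bases upstream of the start. Tgfb1 is on chromosome 7 (25687002 to 25705077, plus strand of GRCm38) and Tgfb2 on chromosome 1 (186622792 to 186705989, minus strand), and the windows are chr7:25686752-25687001 on the plus strand and chr1:186705990-186706239 on the minus strand.
Tgfb1: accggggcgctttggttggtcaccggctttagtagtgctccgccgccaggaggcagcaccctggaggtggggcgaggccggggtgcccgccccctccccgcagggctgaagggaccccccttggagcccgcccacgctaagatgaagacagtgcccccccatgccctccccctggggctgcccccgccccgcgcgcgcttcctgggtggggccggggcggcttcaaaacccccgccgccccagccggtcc
Tgfb2: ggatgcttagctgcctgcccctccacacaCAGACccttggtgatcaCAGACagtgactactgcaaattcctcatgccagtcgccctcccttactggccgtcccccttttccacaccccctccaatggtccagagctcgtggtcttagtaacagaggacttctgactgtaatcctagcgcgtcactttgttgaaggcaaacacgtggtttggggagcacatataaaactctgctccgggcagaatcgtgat
The Tgfb1 window has a GC content of 75.2% and 0 matches, and the Tgfb2 window has a GC content of 53.6% and 2 matches, which begin 221 and 204 bases before the start. Of 32851 mouse promoter windows of 250 bases, 42.2% hold at least 1 match. The longer palindrome GTCTAGAC, which reads the same on both strands and does not contain CAGAC, was in 0 of the 7 windows and in 0.167% of all windows. The AP-1 letters TGANTCA, also a palindrome, were also in 0 of the 7 windows, against 6.75% of all windows. A match describes the letters of the window and is not evidence of binding.

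Among the receptors, the type II receptor rose. Tgfbr2, the ligand-binding kinase that starts the signal, had a signal of 41.1, 43.8, 42.2 and 34.3 in the WT libraries, replicates 1 to 4 in turn, against 49.8, 47.5, 50.6 and 47.4 in the LRP1 eKO libraries. Every LRP1 eKO library exceeded the highest WT library, and WT replicate 4 was the lowest. The mean rose by 21.0%, from 40.4 ± 4.18 to 48.8 ± 1.62 (SD, n = 4 each), and the log2 fold change was 0.27 (standard error 0.072, 95% interval 0.11 to 0.43, limma adjusted p = 0.013). Without WT replicate 4 it was 0.20 (limma adjusted p = 0.0038), and the call was made under all 18 alternatives that gave a p.

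Tgfbr1, the type I receptor kinase that phosphorylates Smad2 and Smad3, did not pass the test. Its signal was 14.9, 15.9, 17.7 and 11.6 in the WT libraries, replicates 1 to 4 in turn, against 19.4, 14.1, 20.4 and 18.4 in the LRP1 eKO libraries. LRP1 eKO replicate 2 lay within the WT range and the other three lay above it. The log2 fold change was 0.25 (95% interval -0.05 to 0.55, limma adjusted p = 0.16), and the exact two-sided permutation test gave p = 0.20. Without LRP1 eKO replicate 2 the log2 fold change was 0.36 (limma adjusted p = 0.038), and without WT replicate 4 it was 0.14 (limma adjusted p = 0.35).

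Tgfbr3, or betaglycan, is a co-receptor without a kinase that presents ligand, above all TGF-beta 2, to Tgfbr2. Its signal was 23.6, 24.8, 24.4 and 17.7 in the WT libraries, replicates 1 to 4 in turn, against 21.6, 18.5, 22.1 and 18.5 in the LRP1 eKO libraries. WT replicate 4 was lower than every other library, and the other three WT libraries were above all LRP1 eKO libraries. With all libraries the log2 fold change was -0.15 (95% interval -0.39 to 0.09, limma adjusted p = 0.28; exact two-sided permutation test, p = 0.23). Without WT replicate 4 it was -0.26 (limma adjusted p = 0.016). The noncoding Gm43422 shares 297 bases with a Tgfbr3 exon on the same strand.

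The balance of type II receptor to co-receptor also differed between the genotypes. The Tgfbr2 signal over the Tgfbr3 signal was 1.74, 1.76, 1.73 and 1.94 in the WT libraries, replicates 1 to 4 in turn. In the LRP1 eKO libraries it was 2.30, 2.57, 2.29 and 2.56, and its geometric mean was 1.35-fold higher. This ratio was again chosen after the values were seen and is given with no test. WT replicate 4, which was low for both genes, was the highest WT library for their ratio. Per kilobase of transcript the WT order was Tgfbr2 at 4.99, Tgfbr3 at 3.72 and Tgfbr1 at 2.61. The ranges of Tgfbr3 and Tgfbr1 per kilobase overlapped in both genotypes. They were 2.91 to 4.08 and 2.02 to 3.07 in WT libraries, and 3.03 to 3.63 and 2.45 to 3.55 in LRP1 eKO libraries. Both genes were below Tgfbr2, at 4.24 to 5.41 in WT and 5.86 to 6.25 in LRP1 eKO libraries.

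Smad3, which carries the receptor signal to the nucleus and binds DNA there, was higher in LRP1 eKO libraries. Its signal was 21.4, 24.9, 24.6 and 18.6 in the WT libraries, replicates 1 to 4 in turn, against 29.6, 25.8, 30.9 and 26.6 in the LRP1 eKO libraries. The groups did not overlap, although LRP1 eKO replicate 2 was only slightly above WT replicate 2. The mean rose by 26.2%, from 22.4 ± 2.97 to 28.2 ± 2.41 (SD, n = 4 each), and the log2 fold change was 0.33 (standard error 0.095, 95% interval 0.12 to 0.54, limma adjusted p = 0.021). The call was lost without WT replicate 1 (limma adjusted p = 0.0501), LRP1 eKO replicate 1 (0.055) or LRP1 eKO replicate 3 (0.059). The 250 bases upstream of Smad3 hold 0 matches to CAGAC, with a GC content of 69.2%, and those of Tgfbr2 hold 1.

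The means of both feedback inhibitors were higher in the LRP1 eKO group, and neither passed the test. Smad7, which blocks the type I receptor and recruits ubiquitin ligases to it, had a signal of 16.4, 14.9, 14.5 and 13.1 in the WT libraries, replicates 1 to 4 in turn, against 15.3, 18.6, 15.5 and 17.0 in the LRP1 eKO libraries. WT replicate 1 lay among the LRP1 eKO libraries. The log2 fold change of Smad7 was 0.16 (95% interval -0.01 to 0.34, limma adjusted p = 0.12), and it was not called under any of the 18 alternatives that gave a p. Without WT replicate 4 and LRP1 eKO replicate 2 together it was 0.06 (limma adjusted p = 0.45). The exact two-sided permutation test of Smad7 gave p = 0.14.

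Skil encodes SnoN, a nuclear co-repressor of Smad target genes that TGF-beta first degrades and later induces. Its signal was 11.6, 13.9, 13.1 and 8.33 in the WT libraries, replicates 1 to 4 in turn, against 15.8, 14.9, 14.7 and 13.7 in the LRP1 eKO libraries. The groups met at a single pair, LRP1 eKO replicate 4 being just below WT replicate 2. Skil had a log2 fold change of 0.33 (95% interval 0.04 to 0.62, limma adjusted p = 0.066; exact two-sided permutation test, p = 0.057), and without WT replicate 2 it was 0.41 (limma adjusted p = 0.033). Without WT replicate 4, the lowest library, it was 0.19 (limma adjusted p = 0.056).

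The largest change among the 10 genes was that of Tgfbi, a secreted protein of the extracellular matrix that binds integrins and collagen and takes its name from its induction by TGF-beta. Its signal was 3.02, 3.08, 3.47 and 4.52 in the WT libraries, replicates 1 to 4 in turn, against 1.82, 0.691, 1.64 and 1.42 in the LRP1 eKO libraries. All WT libraries were above all LRP1 eKO libraries, with WT replicate 4 the highest and LRP1 eKO replicate 2 the lowest. The mean fell by 60.5%, from 3.52 ± 0.70 to 1.39 ± 0.49 (SD, n = 4 each). On the log2(signal + 1) scale the change was -0.93 (standard error 0.16, 95% interval -1.29 to -0.57, limma adjusted p = 0.0016), a size exceeded by 2.41% of the genes tested. With a pseudocount of 0.1 in place of 1 it was -1.34 and with 5 it was -0.41, since the signals are low. Without WT replicate 4 and LRP1 eKO replicate 2 it was -0.67 (limma adjusted p = 2.4e-04).

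The upstream sequence of Tgfbi, the member named for its response to the pathway, is shown for comparison with those of the ligands. The gene lies on chromosome 13 (56609523 to 56639562, plus strand of GRCm38), and the window is chr13:56609336-56609522, the 187 bases of the RefSeq promoter that lie before its first GENCODE exon, with GTCTG in capitals.
Tgfbi: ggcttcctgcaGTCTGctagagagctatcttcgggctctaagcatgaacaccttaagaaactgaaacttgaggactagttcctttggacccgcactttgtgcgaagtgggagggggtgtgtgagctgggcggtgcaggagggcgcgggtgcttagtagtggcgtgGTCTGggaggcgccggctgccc
The 250 bases before the RefSeq start hold 2 matches, which begin 239 and 85 bases before it, and have a GC content of 62.4%. Tgfb2, which rose, and Tgfbi, which fell, each have 2 matches, and Tgfb1 and Smad3, which rose, have 0.

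**Figure D2:**
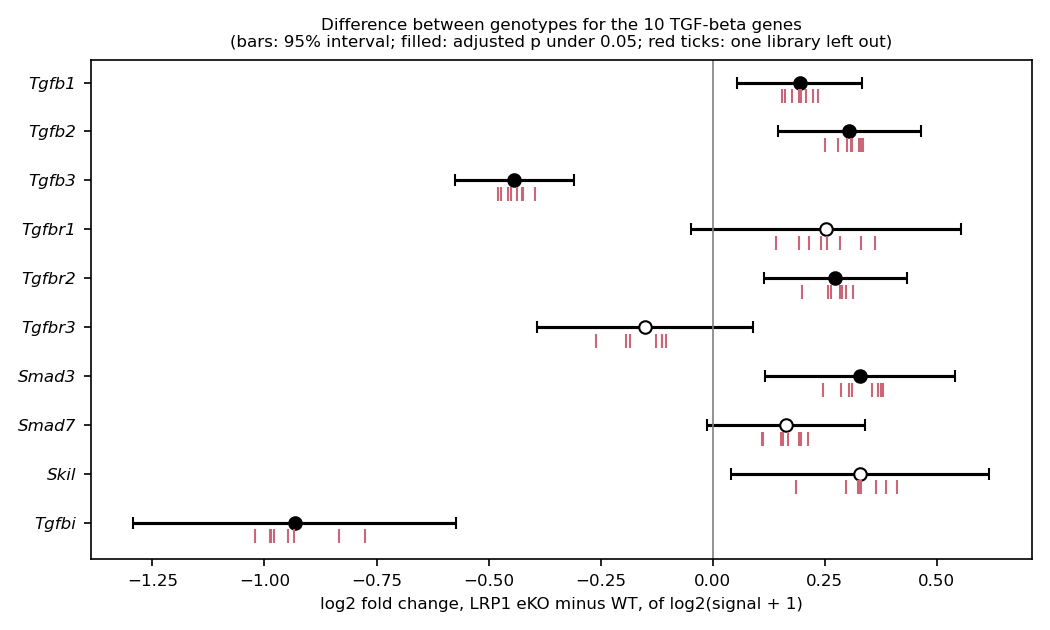
Log2 fold change of log2(signal + 1), LRP1 eKO minus WT (horizontal axis), for the 10 TGF-beta genes (vertical axis). Bars are 95% intervals from limma, filled circles passed the test, and red ticks leave out 1 library each. The interval of Tgfbi, -1.29 to -0.57, lies farthest from 0, and those of Tgfbr1, Tgfbr3 and Smad7 include 0.

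Of 53 other genes of the pathway, all in the table, 50 passed the filter. In LRP1 eKO libraries 22 of them were higher (44%, beside 19% of all genes tested) and 5 were lower (10%, beside 22.2%), and 27 of the 50 had no overlap between the groups, which 42.6% of all genes tested also showed. Among the 10 TGF-beta genes above, 6 had no overlap. The lists were chosen with earlier results of these data known, and no test of a list was made. Values below are means with SDs over the 4 libraries of a genotype, WT first. The number of lower genes depended on WT replicate 4, without which it was 8.

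The latent complex list had 9 genes tested, with 1 higher, 3 lower and a median log2 fold change of -0.14. Lrrc32, which encodes GARP, the protein that holds latent TGF-beta on the cell surface, rose from 13.3 ± 1.00 to 20.4 ± 2.20 (log2 fold change 0.58, limma adjusted p = 4.9e-04). Ltbp4 and Ltbp3, latent TGF-beta binding proteins that tether the complex to the matrix, fell. Ltbp4 went from 23.9 ± 3.27 to 13.8 ± 1.74 (-0.75, limma adjusted p = 5.1e-04) and Ltbp3 from 73.0 ± 3.57 to 55.5 ± 6.12 (-0.39, limma adjusted p = 0.0029). The third lower gene was Thbs1, an activator of latent TGF-beta, whose groups overlapped, at 625 ± 122 and 442 ± 56.5 (-0.48, limma adjusted p = 0.025). With no filter on low values its adjusted p from limma was 0.11, and the exact two-sided permutation test gave p = 0.086.

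Receptor partners had 8 genes tested, with 3 higher and 2 lower. Eng, or endoglin, an endothelial co-receptor for TGF-beta and BMP9, rose from 12.4 ± 1.20 to 24.3 ± 3.86 (log2 fold change 0.91, limma adjusted p = 1.9e-04). Cd109, a surface co-receptor that limits TGF-beta signaling, rose from 8.81 ± 1.36 to 11.9 ± 0.086 (0.41, limma adjusted p = 0.0073), and Tgfbrap1, a receptor-associated adaptor, from 5.87 ± 0.082 to 6.96 ± 0.66 (0.21, limma adjusted p = 0.026). The Tgfbrap1 call was lost without WT replicate 1 (limma adjusted p = 0.056) or WT replicate 2 (0.0504). The lower genes both encode inhibitors. Bambi, a decoy receptor without a kinase, fell from 1.44 ± 0.28 to 0.824 ± 0.051 (-0.41, limma adjusted p = 0.0041) and passed the filter only through its WT libraries, and Vasn, a ligand trap, fell from 42.2 ± 2.12 to 33.5 ± 1.08 (-0.33, limma adjusted p = 7.0e-04).

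Among the Smads, co-repressors and turnover enzymes, 8 of 13 genes were higher and 0 were lower. The largest increases were those of ubiquitin ligases that mark receptors and Smads for degradation. Smurf1 rose from 8.82 ± 0.063 to 13.2 ± 0.66 (log2 fold change 0.53, limma adjusted p = 3.9e-05), Wwp1 from 10.98 ± 1.78 to 16.3 ± 1.05 (0.54, limma adjusted p = 0.0030) and Smurf2 from 23.3 ± 4.64 to 31.8 ± 1.16 (0.45, limma adjusted p = 0.018). The other five were Smad2, the co-repressor Tgif1, the Smad phosphatase Ppm1a, the ligase Nedd4l and Pmepa1, an inhibitor that is itself induced by TGF-beta, with log2 fold changes between 0.14 and 0.38.

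Of the target genes 10 of 20 were higher and 0 were lower, with a median log2 fold change of 0.27. Ctgf, a matricellular growth factor, rose from 217 ± 13.1 to 373 ± 4.15 (log2 fold change 0.78, limma adjusted p = 2.7e-06), and Acta2, smooth muscle actin, from 811 ± 37.3 to 1066 ± 32.1 (0.39, limma adjusted p = 1.8e-04). The collagen and fibronectin genes of the list did not pass, with log2 fold changes of 0.19 for Col1a1, -0.19 for Col1a2, -0.20 for Col3a1 and 0.26 for Fn1. Tgfbi, although named as a TGF-beta-induced gene, thus moved in the other direction from Ctgf and Acta2.

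**Figure D3:**
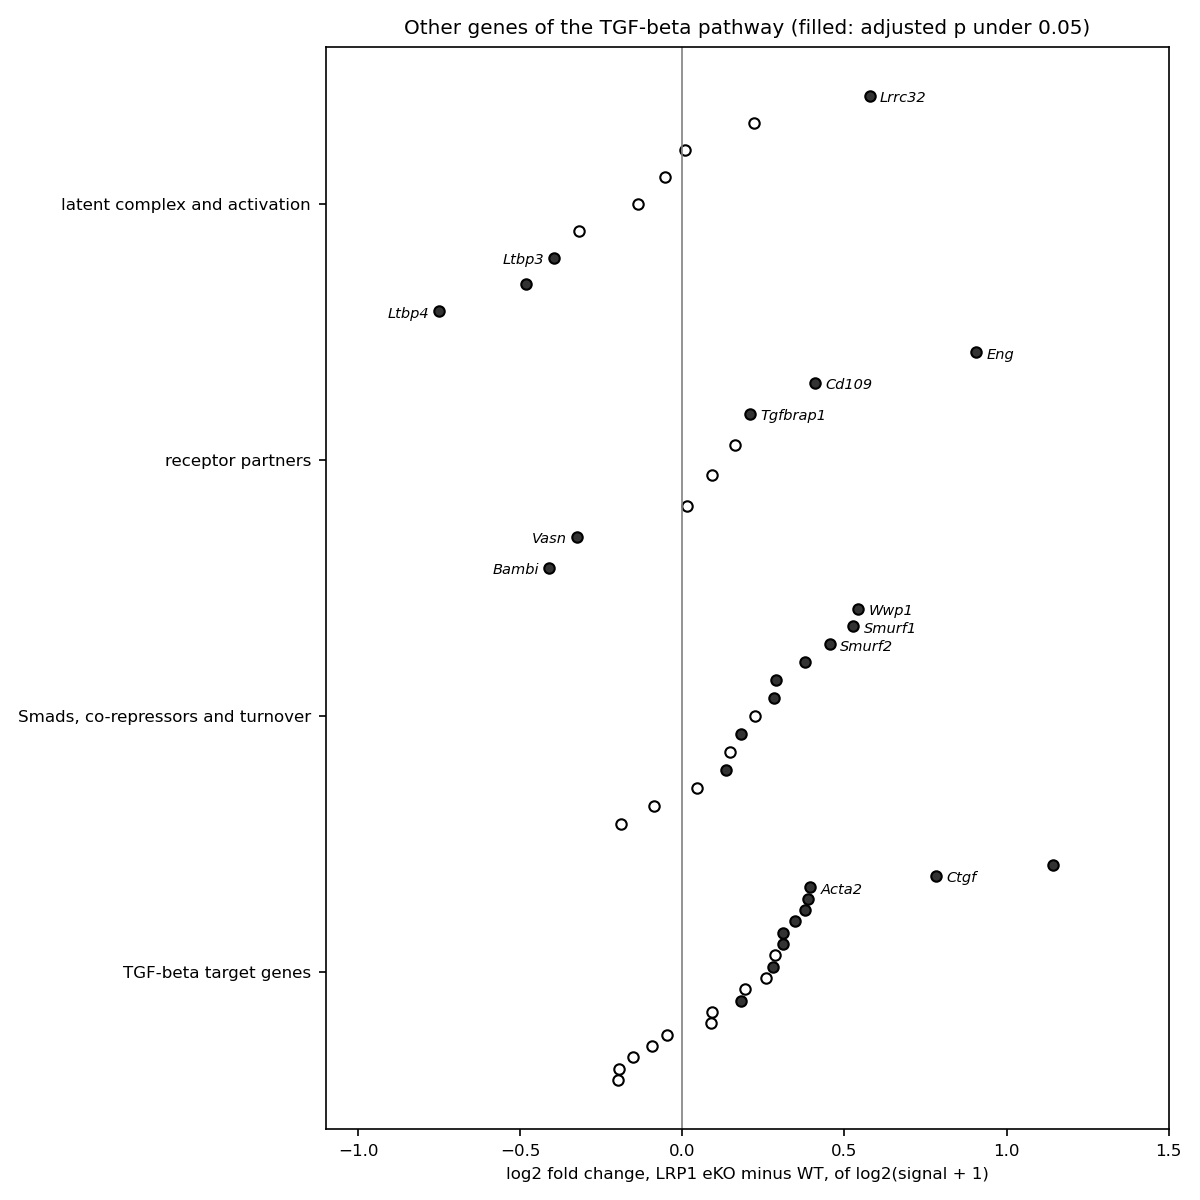
Log2 fold change of log2(signal + 1), LRP1 eKO minus WT (horizontal axis), of the 50 other TGF-beta pathway genes tested, by list (vertical axis). Each circle is a gene and filled circles passed the limma test; 0 of the Smad list and 0 of the target list were lower.

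Markers of several cell types also differed between the genotypes, and their part in these results was not tested. The counts stand beside 19% of all genes tested that were higher in LRP1 eKO libraries and 22.2% that were lower. Of the markers tested, 5 of 8 in the hepatic stellate and fibroblast list were lower and 1 was higher, 6 of 6 hepatocyte and 4 of 4 skeletal muscle markers were lower, and 4 of 6 smooth muscle markers, 2 of 6 mesothelial, 2 of 7 pan-endothelial, 1 of 4 sinusoidal and 1 of 10 macrophage markers were higher. In the 2 remaining lists, 1 of 1 lymphocyte and granulocyte marker was higher and 0 of 2 platelet markers were called. Of these calls, Oit3 (sinusoidal) and Myh11 (smooth muscle) passed the filter only through the LRP1 eKO libraries, and Atp2a1 (skeletal muscle) only through the WT libraries, where each is high. Summed over the stellate and fibroblast list, the signal ranged from 722 to 802 among WT libraries. Among LRP1 eKO libraries it ranged from 579 to 620. A single gene, Dcn, made up most of this sum, with a WT mean of 563 and an LRP1 eKO mean of 457. The library with the highest sum was WT replicate 4, which was also the highest for Tgfbi. The skeletal muscle sum was 31.7 to 53.7 in WT and 5.73 to 7.20 in LRP1 eKO libraries, and WT replicate 4 was again the highest. The mesothelial sum was 2238 to 2689 in WT and 2911 to 3223 in LRP1 eKO libraries. The hepatocyte sum was 98.7 to 147 in WT and 35.4 to 47.1 in LRP1 eKO libraries.

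Leukocytes also express Tgfb1, and macrophage markers varied widely. The summed signal of the macrophage list was 114 to 224 in WT libraries and 742, 53.4, 679 and 398 in LRP1 eKO replicates 1 to 4, so that replicates 1 and 3 were the highest for both the list and Tgfb1. In LRP1 eKO replicate 2 the macrophage sum was below that of every WT library and Tgfb1, at 33.1, was above every WT library. In LRP1 eKO replicate 4 the macrophage sum was above every WT library and Tgfb1, at 32.3, was the lowest of the LRP1 eKO libraries. A link between macrophage content and Tgfb1 was not tested. Of the Kupffer cell markers, Timd4 was listed at 0 in 7 of the 8 libraries. Clec4f was at 0 in all 4 WT libraries and at 0.124 to 0.826 in LRP1 eKO libraries. Others were above 0 in every library. Cd5l had 2.05 to 4.08 in WT and 0.274 to 20.8 in LRP1 eKO libraries. Marco had 0.619 to 1.43 and 0.0861 to 8.86, and Vsig4 0.422 to 0.875 and 0.0381 to 7.03. The pan-endothelial sum was 37.9 to 39.7 in WT and 38.9 to 55.1 in LRP1 eKO libraries, and the sinusoidal sum 7.84 to 11.7 and 8.82 to 29.8. Esam and Egfl7, with WT means of 15.0 and 9.17, weighed most in the pan-endothelial sum.

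**Figure D4:**
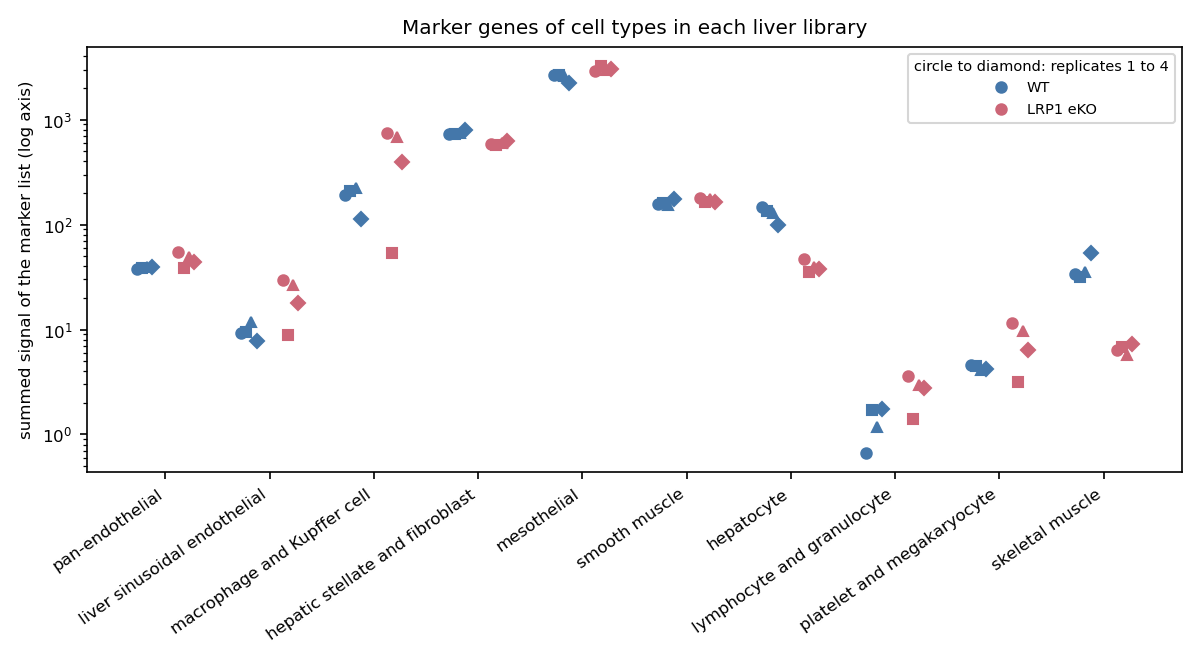
Summed quantile-normalized signal of 10 cell type marker lists (vertical log axis) in the 4 WT and 4 LRP1 eKO libraries. Each symbol is a library. The macrophage sum of LRP1 eKO replicate 2, 53.4, is below all WT libraries. The groups do not overlap for the stellate and fibroblast, hepatocyte, skeletal muscle and mesothelial sums.

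The genes whose pattern over the 8 libraries was most like that of Tgfb3 were Arvcf, Acvr1b and Oaz2, with root mean square differences of centred log2(signal + 1) of 0.028, 0.036 and 0.036, where the median over all genes was 0.26. For Tgfbi, the member with the largest spread within a genotype, A730049H05Rik and Cadm4 were among the most alike, at 0.095 and 0.099, where the median was 0.53.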

How the data were processed

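Liver EC mRNA-seq libraries of 4 WT and 4 LRP1 eKO samples, grouped by their labels, were used. The authors deposited a quantile-normalized signal per protein-coding gene. The submitters' processing notes name TopHat2, Cufflinks and mm10, whereas the study's methods name trimGalore, STAR, featureCounts and edgeR, and neither describes the quantile normalization. That step removes any global shift between genotypes. Since the table is not raw counts, the study's count test was replaced by limma 3.58.1 in R 4.3.3 on log2(signal + 1), with genotype as the only term, a mean-variance trend, and p-values were adjusted by Benjamini-Hochberg over 11391 genes. The depth is unknown, so no counting interval was computed. The fit was tested on simulated data.

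The members and lists were chosen with earlier results of these data known. Genes named were all members, Lrp1, up to 3 increases and 3 decreases per pathway list with no overlap of the groups, markers beside a member, and the 3 genes most like Tgfb3 and Tgfbi. Some of the genes that this rule picks are not reported here. Thbs1, Oit3, Myh11, Atp2a1, the collagens, Fn1 and the 5 further Smad-list genes were named after their values were seen. So were Cd5l, Marco, Vsig4, Esam, Egfl7 and Dcn. Annotation came from GENCODE M21 on GRCm38, with transcript lengths for 93.0% of genes. Alternatives were other pseudocounts, filters, moderation, array weights, centring, a replicate block, a 2-fold rule, a ratio of means and leaving out libraries. Python 3.11.15 with matplotlib 3.10.9 drew the figures.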

Additional observations from a re-analysis of the deposited data

Results flagged for a closer look

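In 5 of 50 groups of 4 libraries examined, a library stood apart from the rest by a gap over 0.829 of the group's range, Dixon's critical value. Chance would give about 2.5 if the groups were independent and normally distributed. They share the same 8 libraries, so the 5 cannot be judged against that number. WT replicate 4 was the lowest WT library for Tgfbr3, with a gap of 0.834 of the range, for Wwp1 (0.852) and for Smurf2 (0.949), and the highest for Bambi (0.881). LRP1 eKO replicate 2 was the highest LRP1 eKO library for Tgfbrap1 (0.858), at a signal of 7.94.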

How the results depend on the processing

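Of 188 values of the 10 TGF-beta genes under alternatives, 170 were counted as unchanged, 10 lost the call, 8 gained it and 0 reversed. Of 265 values of the 14 other pathway genes that the naming rule picked, 262 were counted as unchanged and 3 lost the call. The unchanged values include the ratio of means of every gene, which has no p and was compared by direction only. The count of higher TGF-beta genes, 4, was 2 with no filter and 0 with the 2-fold rule, and 2 to 5 when a library was left out, with 2 without WT replicate 1, LRP1 eKO replicate 1 or LRP1 eKO replicate 3. The count of lower TGF-beta genes, 2, was 1 at a minimum mean signal of 5, which removes Tgfb2 and Tgfbi, 0 with the 2-fold rule on log2(signal + 1), although Tgfbi had a log2 ratio of mean signals of -1.34, and 2 to 3 when a library was left out. For the other pathway genes, the 22 higher became 1 with the 2-fold rule and 20 to 23 when a library was left out, and the 5 lower became 10 with array weights, 8 without WT replicate 4 and LRP1 eKO replicate 2, 0 with the 2-fold rule, and 4 to 8 when a library was left out. Over all genes 99 were higher and 90 lower with the 2-fold rule, and 1715 to 2206 and 2025 to 2604 when a library was left out. With no filter, Tgfb1 (limma adjusted p = 0.078), Smad3 (0.080), Smurf2 (0.082) and Thbs1 (0.11) lost the call. With array weights Tgfbr1 (0.23, limma adjusted p = 0.044) and Tgfbr3 (-0.22, limma adjusted p = 0.018) passed, as they did without WT replicate 4 and LRP1 eKO replicate 2 (0.25, limma adjusted p = 0.015, and -0.22, limma adjusted p = 0.023). The cause was not tested. The labels number the samples 1 to 4 in both genotypes and do not say whether these numbers pair them. Same-numbered libraries had correlated deviations over 0.1 in 1 of 4 pairs (range -0.13 to 0.18), and 0 of 8 libraries correlated best with their own number. These correlations showed no pairing, but weak correlations between so few libraries cannot exclude it. With the replicate block, 4 TGF-beta genes were higher and 2 lower, Tgfb1 lost the call (limma adjusted p = 0.060) and Skil gained it (0.035), 23 and 5 other pathway genes and 1975 and 2210 of all genes were higher and lower. Depth is unknown and sets no stated limit here.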
